A study of Mus musculus with 11 samples.

Results

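The complement genes described here are 7 genes taken by symbol from a table of raw counts with 16934 gene rows. They are C1qa, C1qb and C1qc, which encode the A, B and C chains of C1q, C3 and C4b, which encode complement components, and C3ar1 and C5ar1, which encode the receptors for the fragments C3a and C5a. All 7 had a row, and 6 passed the filter on low counts and were tested among 11276 genes; C4b did not. The 11 libraries are 3′ mRNA sequencing of unpassaged primary microglia, the macrophages that live in brain tissue, grown for 7 to 10 days from C57BL/6 pups aged 0 to 3 days. Microglia cultured alone without α-synuclein gave 4 libraries. Microglia co-cultured for 6 h with untreated primary cortical neurons, taken at day 14 in vitro, gave 3 libraries. Microglia co-cultured for 6 h with such neurons gave 4 where the neurons had first taken up fluorescently labelled α-synuclein fibrils (0.1 µM, 16 h) and been washed. The labels do not say how microglia were separated from neurons before RNA extraction, nor whether the libraries within a group were separate cultures or animals. The p-values here therefore reflect library-to-library spread, which could be technical.

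Complement is a cascade of plasma and tissue proteins that marks particles for uptake. C1q binds targets such as antibody, apoptotic cells and synapses and starts the classical pathway, C4 and C3 are then cleaved and deposited, and the released fragments C3a and C5a act on their receptors on myeloid cells. In the brain microglia are the main source of C1q, and C1q and C3 are known for tagging synapses that microglia remove during development.

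In mm10 coordinates the C1q genes are neighbours on chromosome 4, within 18.7 kb: C1qb from 136880126 to 136886200, C1qc from 136889801 to 136892936 and C1qa from 136895916 to 136898844. C3 lies on chromosome 17 from 57203967 to 57228136 and C4b on chromosome 17 from 34728139 to 34743902. C3ar1 lies on chromosome 6 from 122847140 to 122856157 and C5ar1 on chromosome 7 from 16246743 to 16259540. These are whole-gene spans from the RefSeq annotation of GRCm38.p6. RefSeq gave an upstream window for 5 of the 7 genes. The 250 bases before the annotated start are shown for the C1q chain genes with a window and for C3, the central component. The C1q chain genes were chosen because they share a locus and their protein. Differences between them in how their counts varied were not tested. The C1qc window begins at 136892915, inside the gene span that ends at 136892936, so its start is not the end of that span. Capitals mark matches on either strand to a PU.1 core (GAGGAA) or a C/EBP core (TTGCNNAA).
C1qb, GRCm38.p6 chr4:136886201-136886450, minus strand: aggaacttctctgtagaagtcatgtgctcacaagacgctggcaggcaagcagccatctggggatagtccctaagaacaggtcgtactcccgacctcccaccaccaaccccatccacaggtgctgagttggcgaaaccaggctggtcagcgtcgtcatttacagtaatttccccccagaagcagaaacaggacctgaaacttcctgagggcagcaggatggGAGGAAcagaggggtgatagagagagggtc
C1qc, GRCm38.p6 chr4:136892915-136893164, minus strand: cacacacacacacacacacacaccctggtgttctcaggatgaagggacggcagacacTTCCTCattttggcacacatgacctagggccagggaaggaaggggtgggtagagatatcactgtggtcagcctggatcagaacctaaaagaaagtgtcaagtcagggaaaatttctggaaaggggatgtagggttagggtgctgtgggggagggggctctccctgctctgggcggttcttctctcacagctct
C3, GRCm38.p6 chr17:57228137-57228386, minus strand: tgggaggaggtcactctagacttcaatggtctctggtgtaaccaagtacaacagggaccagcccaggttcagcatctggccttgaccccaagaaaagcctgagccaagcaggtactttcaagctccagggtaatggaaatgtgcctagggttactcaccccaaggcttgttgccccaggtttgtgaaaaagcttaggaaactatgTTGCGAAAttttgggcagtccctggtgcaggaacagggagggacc
GAGGAA matched 30 to 25 bases before the start of C1qb and, on the opposite strand, 193 to 188 bases before that of C1qc. It occurred in 23.3% of 32851 windows of the same length. TTGCNNAA matched 45 to 38 bases before the start of C3 and occurred in 9.56% of windows. The interferon-stimulated response element (2.98% of windows), the gamma-activated site (TTCNNNGAA, 7.02%) and an NF-kB core (GGGNNTTCC, 4.98%) matched in 0 of the 5 windows. The motifs differ in their letters, and no printed matches overlap.

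Total counts ran from 8253070 to 16802451 and detected genes from 9157 to 11739 per library. Values below are CPM, the usual depth-scaled count unit, with library sizes scaled by TMM. Rn45s, the ribosomal RNA precursor, took 14 to 24.8% of counts in microglia alone and 10.7 to 17.0% in the co-cultures. Microglia and macrophage markers, 20 of 20 with counts and among them Csf1r and Tyrobp, summed to 15168 to 16840 CPM for microglia alone, to 18003 to 19473 CPM beside untreated neurons and to 15676 to 19075 CPM beside fibril-loaded ones. P2ry12 and Tmem119, which mark microglia in intact brain, were low, with group means of 2.28, 9.70 and 6.88 CPM and of 9.32, 40.9 and 23.5 CPM. Neuron markers, 23 of 25 with counts and with Snap25 and Slc17a6 at 0 throughout, summed to 1360 to 1627, 665 to 928 and 834 to 1249 CPM. Most of each sum was Basp1, with group means of 1264, 709 and 950.3 CPM, so that the sum mainly describes 1 gene. Of the 16 tested neuron markers 13 were lower and 3 higher with untreated neurons than in microglia alone. With fibril-loaded neurons 12 were lower and 4 higher than in microglia alone. In edgeR at a BH-adjusted p below 0.05, 1 passed with untreated neurons, lower, and 0 with fibril-loaded neurons. In bulk samples fewer cells of a type and less RNA per cell cannot be told apart.

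The C1q chain genes were abundant in every library and their mean levels were higher beside neurons, but no difference passed the test over all genes. C1qa, the A chain gene, was at 2454, 2615, 2144 and 2117 CPM in microglia alone, 3336, 3715 and 2683 CPM with untreated neurons and 3793, 4236, 2649.6 and 2481 CPM with fibril-loaded neurons. All 3 libraries with untreated neurons were above all 4 of microglia alone, while 1 library with fibril-loaded neurons lay within the range of microglia alone. Group means were 2333 ± 243 CPM (SD, n = 4), 3245 ± 522 CPM (n = 3) and 3289.8 ± 859 CPM (n = 4). Against microglia alone the log2 fold change was 0.48 with untreated neurons (SE 0.26, unadjusted p = 0.0805, edgeR BH-adjusted p = 0.545) and 0.50 with fibril-loaded neurons (SE 0.24, unadjusted p = 0.0531, edgeR BH-adjusted p = 0.621).

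C1qc, the C chain gene, was at 2329, 2349, 3194 and 2644 CPM in microglia alone, 3980.2, 4909 and 3611 CPM with untreated neurons and 3415, 5102, 3967 and 2569.7 CPM with fibril-loaded neurons. The libraries with untreated neurons were again all above microglia alone, and again the fourth library with fibril-loaded neurons was the low one, inside the range of microglia alone. Means were 2629 ± 403, 4167 ± 668.5 and 3763.5 ± 1061 CPM. With untreated neurons the log2 fold change was 0.66 (SE 0.27, unadjusted p = 0.021, edgeR BH-adjusted p = 0.393), a 1.58-fold difference with an unadjusted 95% interval from 1.08-fold to 2.33-fold. With fibril-loaded neurons it was 0.52 (SE 0.25, unadjusted p = 0.05005, edgeR BH-adjusted p = 0.614).

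C1qb, the B chain gene, was at 1519, 879.7, 1142 and 728 CPM in microglia alone, 1262, 1266 and 1182 CPM with untreated neurons and 1489.6, 1078, 1157 and 967.5 CPM with fibril-loaded neurons. Its values with untreated neurons were close together, at a coefficient of variation of 3.81%, and fell inside the wide range of microglia alone, where it was 32.4%. The log2 fold change against microglia alone was 0.21 (SE 0.27, edgeR BH-adjusted p = 0.969) with untreated and 0.14 (SE 0.26) with fibril-loaded neurons. The A and C chain genes, whose groups with untreated neurons lay apart from microglia alone, thus had larger estimates than the B chain gene, but the intervals of all of them overlapped and the difference between chains was not tested.

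**Figure D1:**
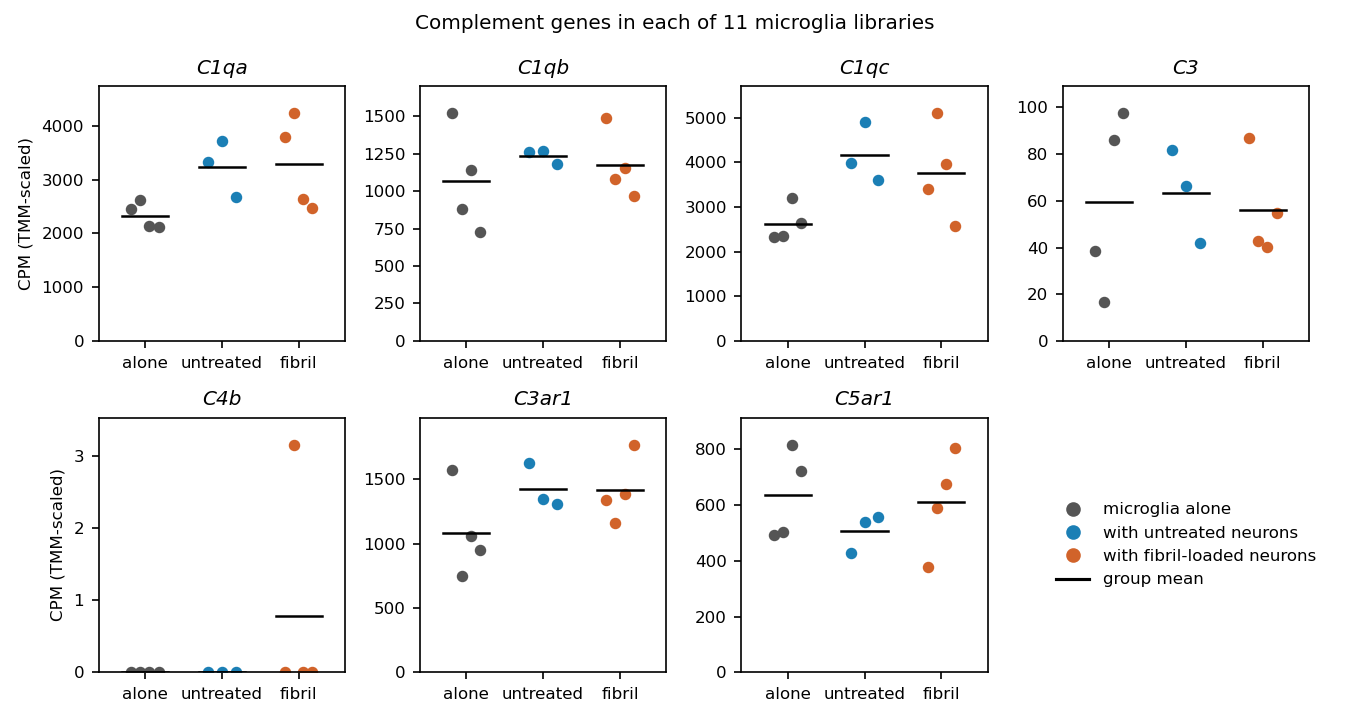
CPM (TMM-scaled, linear axis from 0, own scale per gene) of the 7 complement genes in each library, with 1 point per library and a bar at the group mean; "untreated" and "fibril" are the co-cultures with untreated and fibril-loaded neurons. C1qa and C1qc lie higher in all libraries with untreated neurons than in microglia alone, the other genes overlap between groups, and C4b is at 0 in all libraries but 1.

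The share of C1q counts that came from each chain gene needs no scaling between libraries. It describes counts and not protein chains, since priming at the 3′ end can differ between transcripts. C1qc gave 43.7 ± 6.03% (SD, n = 4) of C1q counts in microglia alone, 48.1 ± 1.63% (n = 3) in the untreated and 45.5 ± 5.46% (n = 4) in the fibril-loaded co-culture. C1qa gave 38.8 ± 4.76%, 37.4 ± 1.51% and 39.9 ± 4.08%. C1qb gave 17.5 ± 4.74%, 14.4 ± 1.53% and 14.6 ± 2.98%, with its highest share, 24.1%, in library 1 of microglia alone and its lowest, 10.4%, in library 2 with fibril-loaded neurons. The ranges of all 3 shares overlapped between the groups, and the differences between group means were smaller than the SD within microglia alone. The 3 genes together made up 5489 to 6480.4 CPM in microglia alone, 7477 to 9889 CPM with untreated neurons and 6018 to 10417 CPM with fibril-loaded neurons.

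**Figure D2:**
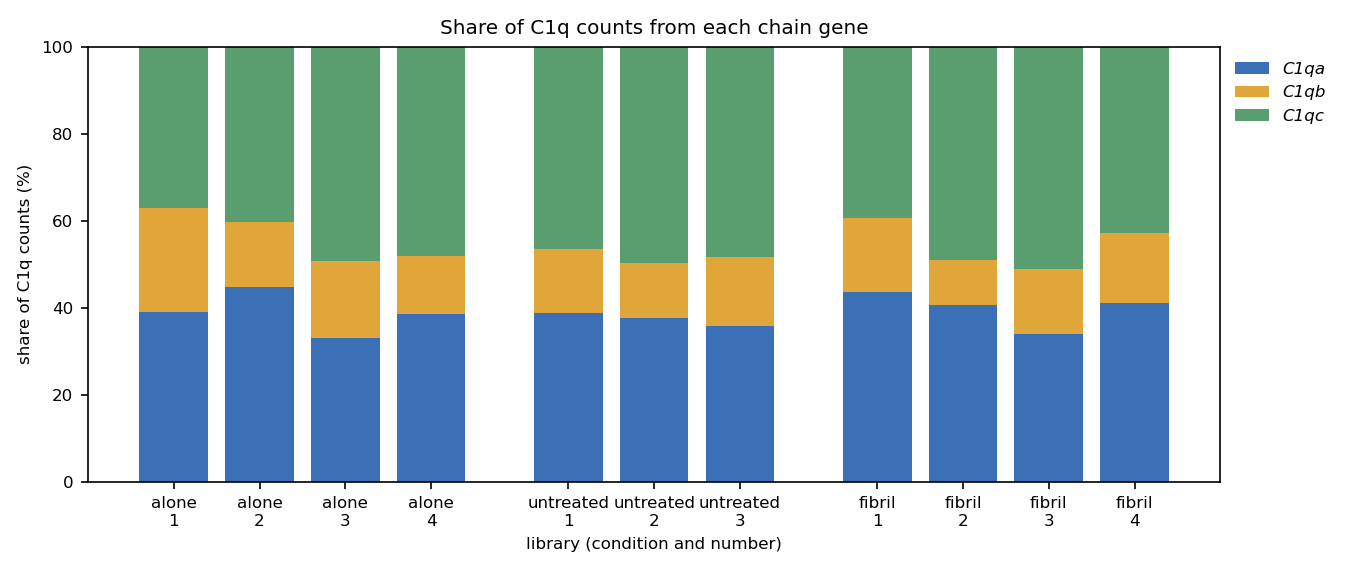
Share of the summed C1qa, C1qb and C1qc counts (%, stacked to 100) from each gene in each of the 11 libraries, grouped by condition. C1qb is the smallest share in every library, from 10.4 to 24.1%, and the groups overlap.

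The summed microglia and macrophage markers, given above, also lay apart between microglia alone and untreated neurons. Of the 20 markers 12 were higher and 8 lower with untreated neurons, and 1 was called, higher. Mean Cx3cr1 went from 602 to 1880 CPM and mean Lyz2 from 1488 to 2400 CPM, while mean Laptm5 went from 1899 to 1620 CPM. A library size made from this sum depends on these genes. Markers of border-associated macrophages, a related cell type of the brain's borders, summed to 1120.1 to 1582 CPM in microglia alone, 1675 to 1969 CPM with untreated and 1189 to 1955 CPM with fibril-loaded neurons. Of these 10 markers 8 had counts, with Pf4, Stab1 and Ms4a7 highest on average and with Lyve1 and Cd209f at 0. Pf4 had means of 241 CPM in microglia alone, 606 CPM with untreated and 553 CPM with fibril-loaded neurons. Mrc1 went the other way, with means of 317, 194 and 157 CPM. In each co-culture 5 of the 7 tested markers were higher than in microglia alone and 2 were lower. Of these 7, edgeR called 1, higher, with untreated neurons (BH-adjusted p = 0.0488) and 0 with fibril-loaded neurons. With the summed microglia and macrophage marker counts as library size the log2 fold change with untreated neurons was 0.42 for C1qc and 0.22 for C1qa, and with fibril-loaded neurons 0.36 and 0.34. That scaling moved the median over all genes by -0.25 and -0.15 in these comparisons. The part of border-associated macrophages in the result was not tested.

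C3, the component on which all activation pathways converge, was measured at a low level that varied widely within groups. It was at 38.5, 16.7, 86.1 and 97.5 CPM in microglia alone, 81.8, 66.4 and 42.02 CPM with untreated neurons and 86.8, 42.7, 40.3 and 54.7 CPM with fibril-loaded neurons. Both the lowest and the highest library were of microglia alone, and the 3 groups overlapped. The log2 fold change was 0.09 with untreated neurons (SE 0.51, edgeR BH-adjusted p = 0.997) and -0.09 with fibril-loaded neurons (SE 0.48) against microglia alone. The unadjusted 95% intervals ran from 0.506-fold to 2.23-fold and from 0.473-fold to 1.87-fold. These values rest on 168 to 1352 counts per library. Astrocytes also express C3. Their markers, 11 of 12 with counts, summed to 21.8 to 56.9 CPM in microglia alone, 36.2 to 133 CPM with untreated and 20.8 to 124 CPM with fibril-loaded neurons, with Gfap counted in 2 libraries and Aqp4 in 4. Their part in C3 was not tested.

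C4b, which encodes the C4 cleaved by C1 to continue the classical pathway, had 27 counts (3.15 CPM) in library 2 with fibril-loaded neurons and 0 counts in the other 10 libraries. A count of 0 there allows up to 3 counts, or 0.178 to 0.298 CPM, and this floor covers counting error only. C4a, its near-identical copy on chromosome 17, from 34809092 to 34823460, had no count in any library, and reads of the 2 copies could have been split or lost in counting. No comparison was made for C4b.

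C3ar1, the C3a receptor gene, was at 1573, 750.1, 1059.5 and 950.7 CPM in microglia alone, 1622, 1345 and 1303 CPM with untreated neurons and 1335, 1161, 1386 and 1766 CPM with fibril-loaded neurons. In microglia alone 3 of 4 libraries were below every co-culture library, and library 1 lay among the co-cultures, so the groups overlapped. Its mean was 1083 ± 351 CPM in microglia alone, 1423 ± 173 CPM with untreated and 1412 ± 255 CPM with fibril-loaded neurons. The log2 fold changes against microglia alone were 0.39 (SE 0.27, edgeR BH-adjusted p = 0.725) and 0.38 (SE 0.26, edgeR BH-adjusted p = 0.909).

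C5ar1, the C5a receptor gene, had its lowest mean with untreated neurons. It was at 494, 503, 815 and 722 CPM in microglia alone, 429, 537 and 557 CPM with untreated neurons and 377, 589, 674 and 803 CPM with fibril-loaded neurons. The 3 groups overlapped, and the fibril-loaded group held the lowest library of all. The log2 fold change against microglia alone was -0.32 with untreated (SE 0.29, edgeR BH-adjusted p = 0.872) and -0.05 with fibril-loaded neurons (SE 0.27).

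In edgeR's quasi-likelihood test with BH adjustment at 0.05, 0 of the 6 tested complement genes passed with untreated neurons against microglia alone, where 0.639% of all tested genes did. At an unadjusted p below 0.05 it was 1 of 6, C1qc, against 10.3% of all genes. That count was 0 with marker counts as library size and 2 in DESeq2. After BH adjustment DESeq2 on the same counts and limma on the authors' normalized table also called 0. CPM ranges did not overlap for 2 of the 6, both higher, against 4.9% of all genes in that direction, and 5 of 6 fold changes were positive, against 47.7%. With fibril-loaded neurons against microglia alone 0 of 6 passed, where 0.319% of all genes did, and 0 of 6 had an unadjusted p below 0.05, against 8.14% of all genes; DESeq2 and limma called 0. Ranges lay apart and higher for 0 of 6, against 2.7% of all genes, and 4 of 6 fold changes were positive, against 47.9%. The median log2 fold change of the 6 genes was 0.30 and 0.26 in these comparisons, against -0.05 and -0.04 over all tested genes. The 2 comparisons share the libraries of microglia alone.

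**Figure D3:**
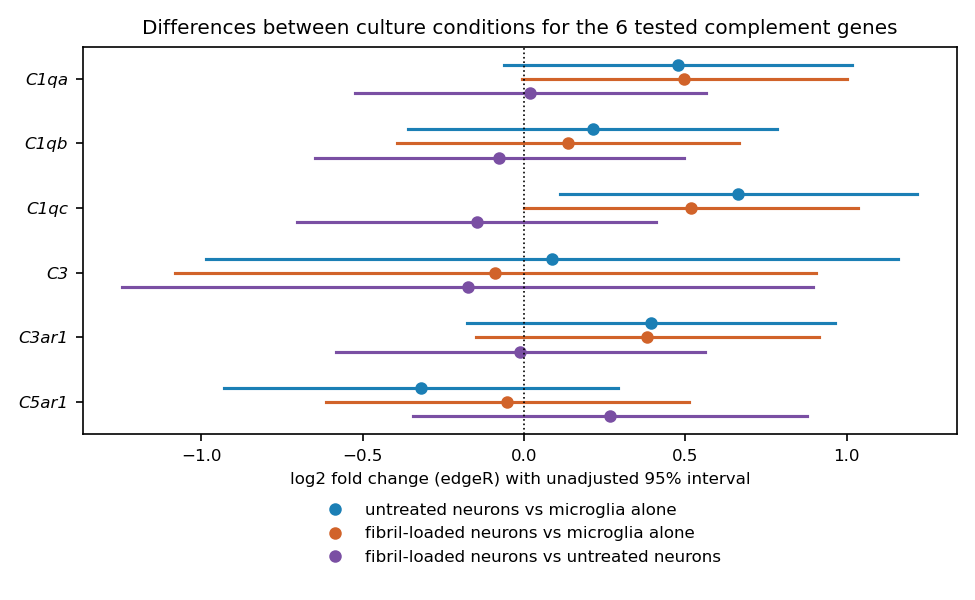
Log2 fold change (edgeR, points) with its unadjusted 95% interval (lines) for the 6 tested complement genes in the 3 comparisons, with a dotted line at 0. Intervals of C3 are the widest, and those of the comparison between co-cultures include 0 for all 6 genes. Against microglia alone, only the interval of C1qc with untreated neurons excludes 0.

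Fibril loading was set against untreated neurons, and none of the 6 tested complement genes differed beyond the spread between libraries. The loaded neurons had taken up fluorescently labelled fibrils and been washed, so fibril, fluorescent label and handling cannot be told apart here. The log2 fold change was 0.02 for C1qa (SE 0.26), -0.08 for C1qb (SE 0.28), -0.15 for C1qc (SE 0.27), -0.18 for C3 (SE 0.51), -0.01 for C3ar1 (SE 0.28) and 0.27 for C5ar1 (SE 0.29). In edgeR 0 of 6 passed, where 0% of all tested genes did, and 0 of 6 had an unadjusted p below 0.05, against 3.95% of all genes; DESeq2 and limma called 0 of the 6. All 6 genes overlapped in range. Of the 11276 tested genes 269, or 2.39%, lay apart and higher, and 259 lay apart and lower. Fold changes were positive for 2 of 6, against 49.8% of all genes. The unadjusted 95% interval ran from 0.696-fold to 1.48-fold for C1qa, 0.638-fold to 1.41-fold for C1qb, 0.614-fold to 1.33-fold for C1qc and 0.667-fold to 1.47-fold for C3ar1, and from 0.788-fold to 1.84-fold for C5ar1. For C3 it was wider, from 0.422-fold to 1.86-fold. Changes inside these intervals are compatible with these counts, and the intervals are not limits of detection. For C1qa and C1qc, libraries with fibril-loaded neurons spread more widely than the others: the coefficient of variation was 26.1% and 28.2%, against 16.1% and 16.0% with untreated neurons and 10.4% and 15.3% in microglia alone, and the difference in spread was not tested.

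The rest of the pathway was described from 5 lists holding 55 other complement genes. Of these, 41 had a row in the table, 30 had a count in at least 1 library and 19 were tested. With untreated neurons against microglia alone edgeR called 0 of 19, with 4 higher and 2 lower at an unadjusted p below 0.05, and DESeq2 called 2. Over all genes 10.3% had such an unadjusted p and 0.639% were called, and DESeq2 called 493 genes. With fibril-loaded neurons against microglia alone edgeR called 0 of 19, with 3 higher and 1 lower at that unadjusted p. DESeq2, run without the filter on low counts, called 3, and 1 of these, Clu, was not among the 19. The values over all genes were 8.14%, 0.319% and 272 genes. Between the co-cultures edgeR called 0 of 19, with 1 higher and 1 lower, and DESeq2 called 1, again Clu and so not among the 19. The values over all genes were 3.95%, 0% and 202 genes. The median log2 fold change of the 19 was -0.10, 0.11 and 0.24 in the 3 comparisons, against -0.05, -0.04 and 0 over all tested genes.

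Among classical and lectin pathway genes, 12 of 15 had a row and 5 were tested. The 3 highest were Colec12, a scavenger collectin, Fcna, a ficolin that recognises sugars in the lectin pathway, and C2, whose product joins C4b in the classical C3 convertase. Fcna was at 64.1, 29.0, 14.6 and 34.9 CPM in microglia alone, 8.53, 9.95 and 11.4 CPM with untreated neurons and 45.1, 18.6, 43.4 and 24.1 CPM with fibril-loaded neurons. All 3 libraries with untreated neurons lay below all others. Its log2 fold change was -1.84 with untreated neurons against microglia alone (SE 0.70, unadjusted p = 0.0159, edgeR BH-adjusted p = 0.359) and 1.72 with fibril-loaded against untreated neurons (SE 0.70, unadjusted p = 0.0224, edgeR BH-adjusted p = 1), and neither passed. C2 ranged from 3.19 to 63.7 CPM in microglia alone, 22.7 to 39.5 CPM with untreated and 16.9 to 45.0 CPM with fibril-loaded neurons, and Colec12 from 52.5 to 122 CPM over all libraries; both overlapped between groups. The proteases C1ra, C1rb, C1s1 and C1s2, which form the C1 complex with C1q, had counts in 7, 3, 1 and 1 of the 11 libraries, and their means over all libraries were 5.37, 1.15, 0.343 and 0.694 CPM.

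Of 3 alternative pathway genes 2 had a row, and both were tested. Cfb, which encodes factor B, the protease of the alternative C3 convertase, had 0, 0, 5 and 0 counts in microglia alone, 2, 128 and 159 counts with untreated neurons and 115, 59, 118 and 204 counts with fibril-loaded neurons. In CPM the single library of microglia alone with counts was at 0.443, and the co-cultures were at 0.121, 11.5 and 9.42 with untreated neurons and 7.99, 6.89, 11.1 and 13.5 with fibril-loaded neurons. The fibril-loaded group lay wholly above microglia alone, while 1 library with untreated neurons lay inside its range. Cfb did not pass in edgeR (unadjusted p = 0.0224 and 0.0147, BH-adjusted p = 0.402 and 0.448) but passed in DESeq2 (BH-adjusted p = 0.0135 and 0.00388) for untreated and fibril-loaded neurons against microglia alone. Cfp, the gene of properdin, which stabilises that convertase, was at 157, 111, 154 and 182 CPM in microglia alone, 129.6, 195 and 257 CPM with untreated neurons and 147, 214, 346 and 284 CPM with fibril-loaded neurons. The groups overlapped, and with fibril-loaded neurons against microglia alone its log2 fold change was 0.71 (SE 0.31, unadjusted p = 0.0326, edgeR BH-adjusted p = 0.573).

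Terminal pathway genes were not detected: of 7 genes 3 had a row (Hc, C8b and C8g), and none had a count in any of the 11 libraries, which allows 0.178 to 0.350 CPM per library. Of 20 regulators 15 had a row and 4 were tested. Cr1l, which encodes the rodent membrane regulator Crry, ranged from 10.6 to 67.7 CPM over all libraries, and Cd59a, an inhibitor of the membrane attack complex, from 11.005 to 50.04 CPM. The groups of both overlapped and their log2 fold changes lay between -0.65 and 0.41. Clu, which encodes the chaperone and regulator clusterin, had counts in 3 libraries, and Serping1, the C1 inhibitor gene, and Cd55, a convertase regulator, in 1 each.

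Of 10 receptor genes 9 had a row and 8 were tested. Lrp1, a large endocytic receptor, was at 691 ± 156 CPM in microglia alone, 567 ± 83.04 CPM with untreated and 667 ± 126 CPM with fibril-loaded neurons, and Calr, the C1q-binding chaperone calreticulin, at 489.6 ± 8.33, 515 ± 109.8 and 564 ± 131 CPM. Itgam, the alpha chain of complement receptor CR3, was at 359, 257, 421 and 181 CPM in microglia alone, 727, 369 and 568 CPM with untreated neurons and 229, 425, 224 and 432 CPM with fibril-loaded neurons. The groups overlapped. The log2 fold change of Itgam was 0.86 with untreated neurons against microglia alone (SE 0.34, unadjusted p = 0.0192, edgeR BH-adjusted p = 0.389) and -0.76 with fibril-loaded against untreated neurons (SE 0.34, unadjusted p = 0.0372, edgeR BH-adjusted p = 1), and neither passed.

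A further 3 receptor genes are given after their values were seen. Itgb2, the beta chain shared by CR3 and CR4, was at 215, 158, 234 and 108 CPM in microglia alone, 274, 367 and 389 CPM with untreated neurons and 322, 382, 304 and 353 CPM with fibril-loaded neurons. Every co-culture library lay above every library of microglia alone. Its log2 fold change was 0.94 with untreated (SE 0.29, edgeR BH-adjusted p = 0.195) and 0.93 with fibril-loaded neurons (SE 0.28, edgeR BH-adjusted p = 0.213), while DESeq2 called it in both, at BH-adjusted p = 0.0282 and 0.0271. C5ar2, the second C5a receptor gene, was at 6.91 to 14.4 CPM in microglia alone, 22.8 to 68.2 CPM with untreated and 8.63 to 26.2 CPM with fibril-loaded neurons. Cd93, named for a receptor once proposed to bind C1q, was at 144 to 405 CPM, 87.4 to 139 CPM and 84.2 to 193 CPM. C5ar2 lay higher and Cd93 lower with untreated neurons than in microglia alone with no overlap, and neither passed in edgeR (BH-adjusted p = 0.447 and 0.404).

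**Figure D4:**
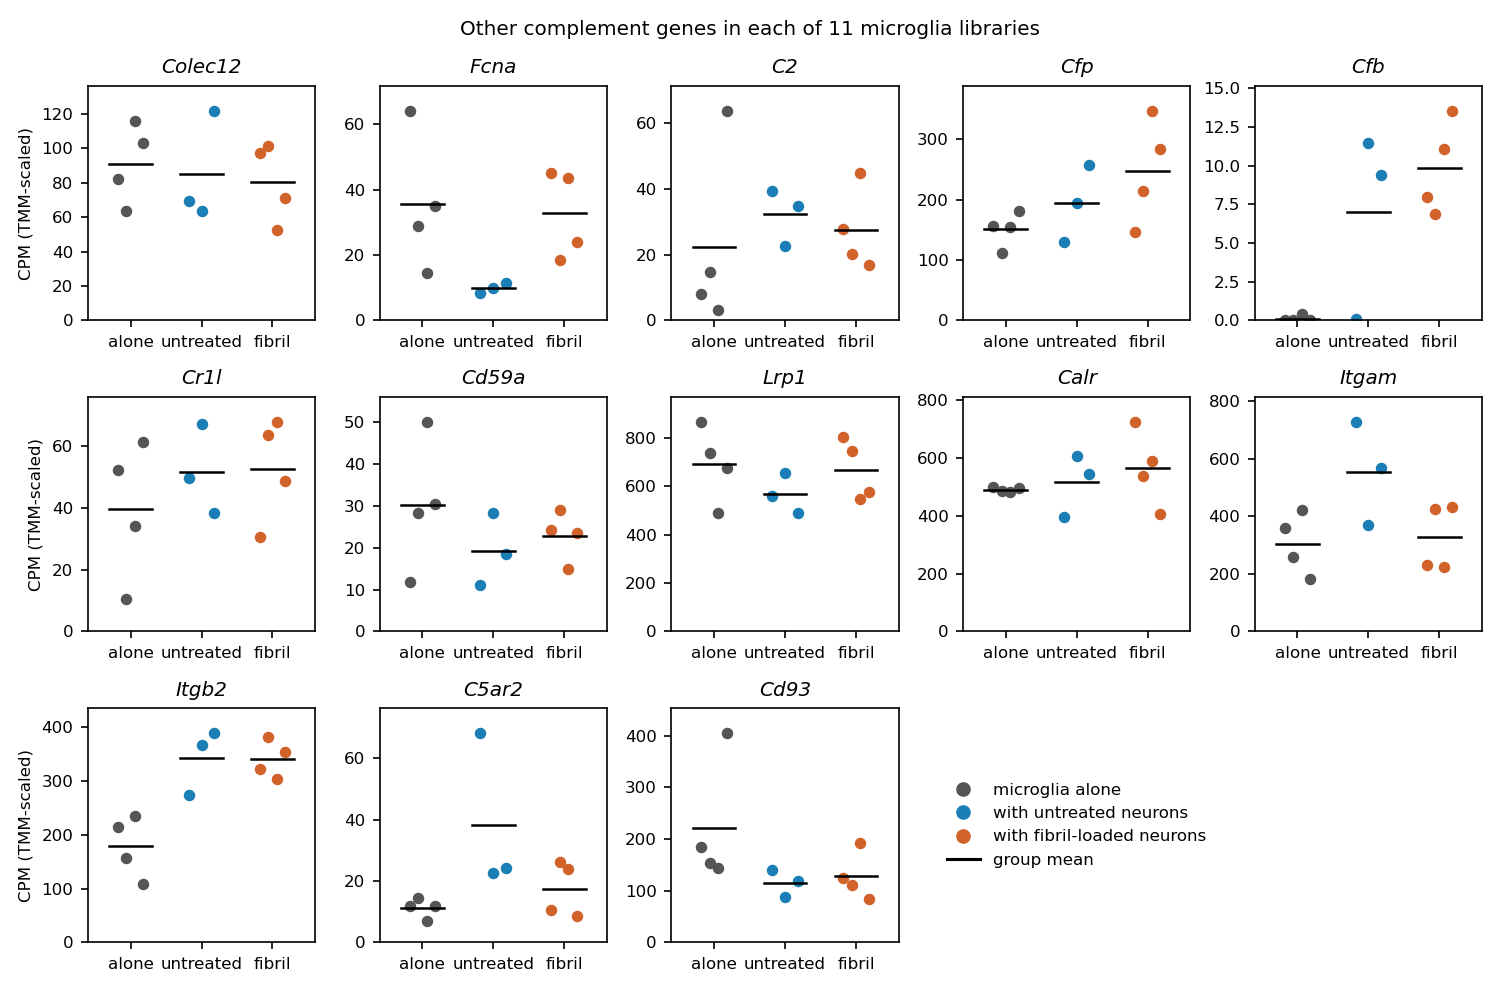
CPM (TMM-scaled, linear axis from 0, own scale per gene) of other complement genes in each library, with 1 point per library and a bar at the group mean; "untreated" and "fibril" are the co-cultures. Itgb2 is higher in all co-culture libraries than in microglia alone, Fcna is lowest with untreated neurons, and Cfb is near 0 in microglia alone.

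Correlations between the complement genes over the 11 libraries differed in size and sign. Pearson's r of log2(CPM + 1) was 0.74 between C1qa and C1qc, 0.45 between C1qa and C1qb, 0.30 between C1qb and C1qc and 0.59 between C1qb and C3ar1, while C5ar1 ran opposite to C1qa (-0.62) and C1qb (-0.58). Among 3118 genes of at least 50 CPM the pattern most like C1qc was that of the acid-sensing receptor gene Gpr65 (r = 0.95, Spearman's rho = 0.95), then Sh3glb1 (0.93, 0.92) and Sec14l1 (0.92, 0.86). C1qa came next to Cebpa (0.85, 0.82), Casp8 (0.84, 0.91) and Cxcl16 (0.83, 0.85), with C1qc in rank 24. C1qb came next to the lysosomal protease gene Tpp1 (0.90, 0.77), Sfswap (0.86, 0.77) and Trim30d (0.85, 0.85), with C1qa in rank 342. For C3 these were Ilk (0.84, 0.82), Pdgfb (0.84, 0.85) and Cyp20a1 (0.82, 0.63), for C3ar1 Rab10 (0.92, 0.82), Slfn2 (0.87, 0.84) and the kinase gene Syk (0.86, 0.84), and for C5ar1 Psmd2 (0.86, 0.76) and Reep5 (0.86, 0.87). The points share libraries, depth and scaling, and these are the highest of many values over few libraries, given as a description.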

How the data were processed

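Expression was measured in 11 libraries prepared for 3′ mRNA sequencing from micro-column RNA, per the protocols in the labels. Raw counts by gene symbol, as the authors deposited them, were the main data; values above 6 digits are held to 6 significant digits. STAR, Partek, DESeq2 and mm10 are listed in the submitters' processing notes, without versions or roles; strand use and duplicate removal are not given in the sources used here. A normalized table that the authors deposited was treated as a score: dividing each library's counts by 1 size factor gave 99.75% or more of its values to within 0.51.

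Groups came from the treatment label, with libraries numbered in order of deposition. Tests used edgeR 4.0.16 in R 4.3.3 (TMM, filterByExpr, quasi-likelihood test, all 11 libraries, group as the only term, two-sided, BH over 11276 genes, threshold 0.05). Intervals of 95% come from edgeR's standard error. Alternatives were RLE scaling, marker counts as library size, Rn45s left out, no filter, a mean of at least 5 CPM, DESeq2 1.42.0, limma 3.58.1 on log2(score + 1), the 2 groups compared only, each library left out, and, chosen after seeing the data, the library of each group with fewest detected genes left out, and a block for sets of title codes. The code was tested on simulated data.

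The genes described and the lists were chosen with earlier results of these data known. Named were the 7 genes, any other complement gene called, the 3 with the highest mean CPM of each list, and for each gene of at least 50 CPM the 3 genes with the highest r; 2 genes that this rule names are not reported here. RefSeq GRCm38.p6 held 16916 of 16934 symbols.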

Additional observations from a re-analysis of the deposited data

Results flagged for a closer look

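In 42 groups of 4 libraries, for the 7 complement genes, the other named complement genes and the C1q shares, 2 had a library far from the rest; chance alone does this in about 5% of groups. In both the other libraries had no count. C4b was at 3.15 CPM (27 counts) in library 2 with fibril-loaded neurons. Cfb was at 0.443 CPM (5 counts) in library 3 of microglia alone.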

How the results depend on the processing

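The complement genes had 0 calls under every alternative run, including each of 11 libraries left out in turn. Of 378 recomputed fold changes 346 kept their direction and side of the threshold, and 32 reversed, all for values not called; the cause was not tested. With marker counts as library size the log2 fold change with untreated neurons against microglia alone was -0.0351 for C1qb and -0.13 for C3, and between the co-cultures 0.0356 for C1qb and 0.0862 for C3ar1. With each group's library of fewest detected genes removed it was -0.29 for C3 with untreated neurons, 0.0338 for C5ar1 with fibril-loaded neurons, and between the co-cultures -0.035 for C1qa and 0.12 for C3ar1. In limma C3 was at 0.14 for fibril-loaded neurons against microglia alone, and C1qa was at -0.00731 between the co-cultures. Leaving out 1 library gave ranges that crossed 0: with untreated neurons against microglia alone -0.22 to 0.43 for C3; with fibril-loaded neurons against microglia alone -0.0089 to 0.37 for C1qb, -0.38 to 0.25 for C3 and -0.21 to 0.12 for C5ar1. Between the co-cultures they were -0.13 to 0.13 for C1qa, -0.21 to 0.00571 for C1qb, -0.47 to 0.0699 for C3 and -0.14 to 0.11 for C3ar1.

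Other complement genes had 0 calls in edgeR in each comparison. DESeq2 called 2 with untreated neurons (Cfb and Itgb2), 3 with fibril-loaded neurons (the same and Clu) and 1 between the co-cultures (Clu). Clu did not pass the main filter, and its DESeq2 log2 fold changes, -20.6 and -19.9, rest on few libraries. It had 122 counts in library 3 of microglia alone, 10 and 48 counts in libraries 1 and 2 with untreated neurons, and no count elsewhere. Over all genes, 72 were called with untreated neurons against microglia alone, but 234 without the filter, 47 at a mean of at least 5 CPM, 493 in DESeq2, 41 with the 2 groups only, 29 without the libraries with the fewest genes, and 32 to 76 with 1 library left out. With fibril-loaded neurons 36 were called, but 164 without the filter, 272 in DESeq2 and 23 to 42 with 1 library left out. Between the co-cultures 0 were called, but 5 without the filter, 202 in DESeq2, 1 without the libraries with the fewest genes and 0 to 1 with 1 library left out. For genes with counts in few libraries or in none, C4b among them, the part of depth was not tested. The only library with C4b counts, library 2 with fibril-loaded neurons, had the lowest total, 8253070 counts. The labels give no shared replicate numbers, but the codes in the sample titles step by 7 within groups and so form 4 sets, whose meaning the labels do not state. Over all groups r of deviations from the group means was low, at -0.0257 to 0.0578 over 10 same-set pairs and -0.0476 to 0.0437 over 30 other pairs. Between the co-cultures, same-set pairs were at 0.0578, 0.0415 and 0.0434 and the other pairs at -0.0402 to 0.0186. Not every library correlated best with its own set, and whether libraries of a set were paired was not tested. With the set as a replicate block, a fit chosen after seeing the data, the complement genes and the other complement genes again had 0 calls, and over all genes 95, 66 and 0 were called with untreated neurons, with fibril-loaded neurons and between the co-cultures.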
